A study of Mus musculus with 10 samples.

Results

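The genes described here make IgA and carry it across the colonic epithelium. They are Pigr, the polymeric immunoglobulin receptor; Igha, Ighm and Igkc, the constant regions of the alpha, mu and kappa chains; Jchain, the joining chain of IgA and IgM polymers; Mzb1, a chaperone of plasma cells; and Cd79a, a signalling chain of the B cell receptor. The members were chosen by symbol, and all 7 were found among the 55487 genes of the expression table. The study removed Rhob, which encodes a small GTPase, and asked how intestinal epithelial cells (IECs) of the colon change without it. RNA was sequenced from IECs of WT mice (5 libraries) and RhoB-/- mice (5 libraries), all on the C57BL/6J background and with no colitis-inducing treatment. The mice were 6 to 8 weeks old where the study's methods name no other age. The deletion is carried by every cell of the animal, not by the epithelium alone. The knockout mice were generated at a mouse model centre and the WT males were bought from another source; all were then kept in the same pathogen-free facility, but genotype and origin of the mice cannot be told apart. Cells were freed from the colon with EDTA, DTT and shaking and were not sorted, so cells lying in or under the epithelium could enter a library. The sources do not state that each library is a different mouse, and p-values here measure the spread between these libraries, which may be partly technical.

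IgA is the main antibody of the gut. Plasma cells under the epithelium link IgA units through the J chain, and Pigr on the basolateral face of epithelial cells binds these polymers, carries them through the cell and releases them into the lumen with a piece of itself attached. B cells that have not switched class make IgM and IgD, and the switch to IgA joins the rearranged variable region to the alpha constant region.

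Levels are given in TPM, a unit corrected for the length of a gene that sums to nearly the same total in each library. TPM keeps no depth, so the number of reads behind a value is unknown, no counting error is given, and a gene without signal is said to be listed at 0. Rhob checked the labels. Its TPM was 171, 303, 365, 333 and 389 in WT replicates 1 to 5 and 0.09, 0.10, 0.35, 0.57 and 111 in RhoB-/- replicates 1 to 5. The library labelled RhoB-/- replicate 5 thus went against its label, although it lay below each WT library, and results are given with and without it. The epithelial label held: all 12 epithelial markers were above the filter, with a summed TPM of 29275 to 33777 in WT and 29213 to 47217 in RhoB-/- libraries, and Car1, a carbonic anhydrase of colonocytes, was the most abundant with a mean TPM of 14953.

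Limma compared log2(TPM + 1) between the genotypes for the 12870 genes whose TPM averaged 1 or more, with Benjamini-Hochberg adjustment over all of them, and a gene was called at an adjusted p below 0.05. A fold change is the mean log2(TPM + 1) of RhoB-/- minus that of WT, and the added 1 shrinks it for a gene of low TPM. Of the 7 members, 4 were tested (Pigr, Igkc, Igha and Ighm). Ighm passed the filter only through the RhoB-/- libraries. Igha alone was called higher, 1 of 4 tested members, where 7.73% of all tested genes were called higher. Limma called 0 of the 4 lower, and 0 at an unadjusted p below 0.05, where 13.5% of tested genes were called lower. In 0 of the 4 did every RhoB-/- library lie above every WT library, a pattern of 5.97% of tested genes. Jchain, Mzb1 and Cd79a lay under the filter and were compared by an exact permutation test of log2(TPM + 1), two-sided, whose smallest possible p is 0.00794. All 3 had an exact p below 0.05 and were higher in RhoB-/-, where 3.59% of the 15244 genes under the filter were. The groups did not overlap for Jchain, 1 of these 3, where 1.26% of genes under the filter had no overlap in that direction. None of the 3 passed Benjamini-Hochberg adjustment over those 15244 genes (adjusted exact p = 0.279, 0.508 and 0.366 for Jchain, Mzb1 and Cd79a). Jchain had the smallest possible exact p, so no gene under the filter passed this adjustment, and it cannot tell these genes apart from others. The shares of all genes given here stand beside each list count below. The median log2 fold change of all tested genes was -0.13, so a fold change of 0 stands slightly above the typical gene. Over all tested genes 995 were called higher and 1734 lower; the split was 1443 and 771 with fold changes recentred on that median, and 1102 and 3730 with TPM rescaled without mitochondrial genes.

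**Figure D1:**
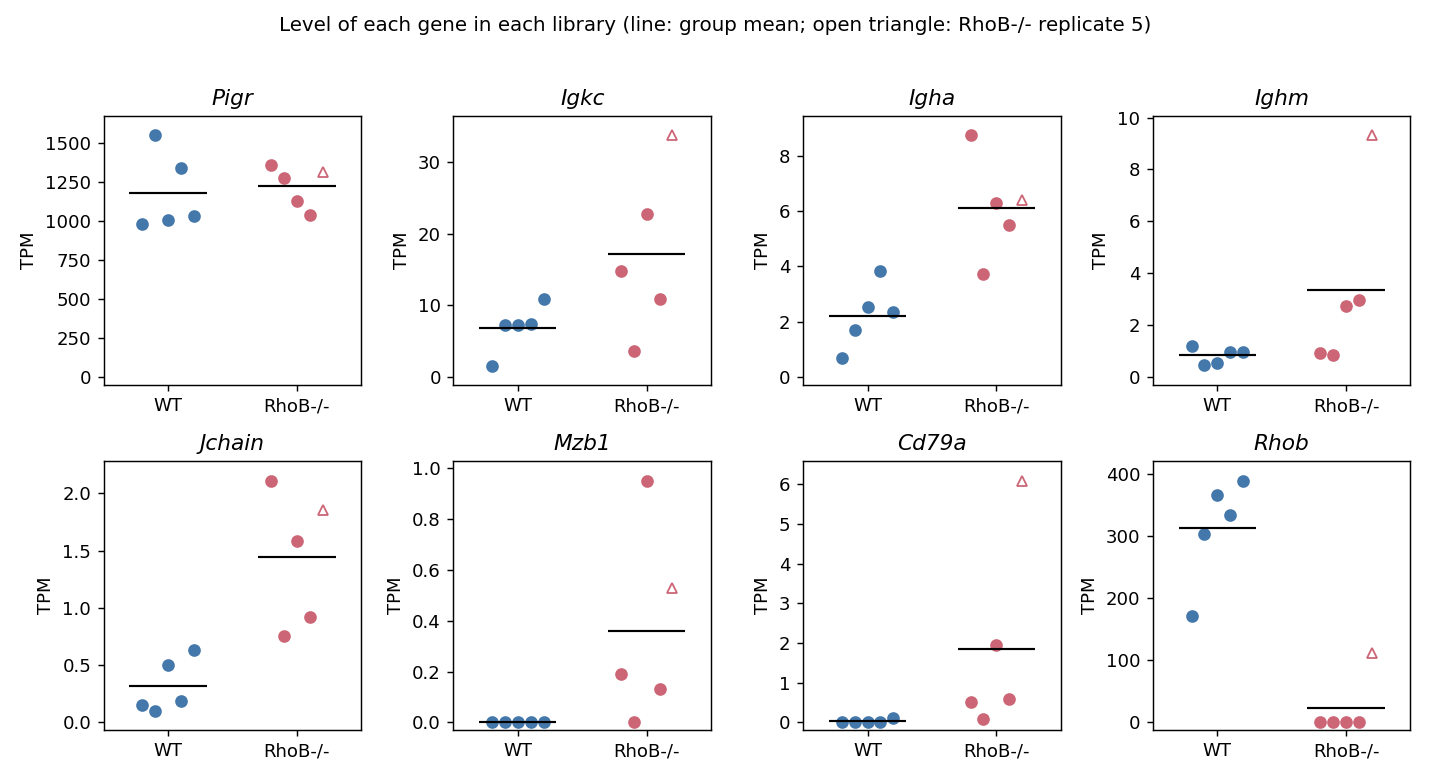
TPM of each member and of Rhob in each library, by genotype; the line is the group mean and the open triangle is the library labelled RhoB-/- replicate 5. Pigr lies between 982 and 1549 TPM in both groups, the groups of Jchain do not overlap, and Mzb1 is listed at 0 in the 5 WT libraries.

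Pigr (ENSMUSG00000026417) lies on the plus strand of chromosome 1 from 130826684 to 130852249 in GRCm38, with up to 11 exons in a transcript. Its promoter is shown because Pigr is the member on which export of IgA rests and because its level can be set beside the factors that bind there. RefSeq promoter windows (build GRCm38.p6, 250 bases before and 50 after the start of transcription) were found for 3 of the 7 members, Pigr, Jchain and Cd79a, and the windows of Igkc, Igha, Ighm and Mzb1 are missing. Both strands were searched for the octamer ATTTGCAT, the E-box CACGTG, the pair of interferon regulatory factor half-sites GAAANNGAA and the core TGACGTGG of the unfolded protein response element. The window of Pigr, chr1:130826434-130826733 on the plus strand, held 1 match, an E-box that starts 71 bases before the start of transcription, shown in capitals.
Pigr: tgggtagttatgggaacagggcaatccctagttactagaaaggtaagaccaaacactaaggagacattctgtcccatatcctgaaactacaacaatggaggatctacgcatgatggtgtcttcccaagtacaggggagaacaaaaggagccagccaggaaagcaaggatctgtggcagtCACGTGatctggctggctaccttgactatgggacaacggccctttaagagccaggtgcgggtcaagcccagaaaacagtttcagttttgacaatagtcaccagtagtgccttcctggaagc
An E-box was found in 7.15% of the 32851 windows of the table, an octamer in 1.74%, an interferon regulatory factor pair in 8.56% and the unfolded protein response core in 0.676%. A match of letters shows no binding.

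Pigr was among the most abundant genes of both genotypes and its level did not pass the test. Its TPM was 982, 1549, 1007, 1342 and 1034 in WT replicates 1 to 5 and 1363, 1278, 1131, 1042 and 1313 in RhoB-/- replicates 1 to 5. The groups overlapped over most of their range, and WT held both the highest and the lowest library. The mean was 1183 TPM in WT and 1225 TPM in RhoB-/-, and Pigr ranked between place 62 and place 124 among the genes of a library. The log2 fold change was 0.07 with a 95% interval from -0.26 to 0.40 (limma adjusted p = 0.771), an interval that spans 0.834 to 1.32 times the WT level. Its sign was negative, -0.01, after rescaling without mitochondrial genes.

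Among the 12 genes of the list of IgA transport and immunoglobulin receptors, 6 were tested, 1 was called higher and 1 lower, and their median log2 fold change was 0.08. Tfrc, the transferrin receptor, fell by 1.01 on the log2 scale (limma adjusted p = 0.000304), from 75.4 to 98.2 TPM in WT to 35.9 to 54.0 TPM in RhoB-/- libraries. Trim21, a cytosolic receptor for the Fc part of antibodies, rose from 2.17 to 4.26 TPM to 5.71 to 8.64 TPM (log2 fold change 0.87, limma adjusted p = 0.00289). Neither gene overlapped between the groups. Fcamr, a receptor for the Fc part of IgA and IgM, had 1.54 to 3.34 TPM in WT and 1.49 to 2.37 TPM in RhoB-/- (log2 fold change -0.17, limma adjusted p = 0.531), and Fcer1g, a signalling chain of Fc receptors, had a log2 fold change of 0.42 (limma adjusted p = 0.201). Of the 6 genes under the filter 2 had an exact permutation p below 0.05, both higher. They were Fcgr2b, the inhibitory IgG receptor, and Ltf, lactoferrin, named after their values were seen.

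Some genes that move Pigr through the cell were called. Of 11 genes on the trafficking list 10 were tested, 2 were called higher, where 7.73% of all tested genes were, and 0 lower (0 at an unadjusted limma p below 0.05), with a median log2 fold change of 0.05. The 1 under the filter, Rab11fip5, named after its values were seen, had 0.45 to 0.93 TPM in WT and 0.23 to 0.47 TPM in RhoB-/- libraries (exact permutation p = 0.0159, lower). Rab11a, a GTPase of recycling endosomes, had 167 to 195 TPM in WT and 207 to 308 TPM in RhoB-/- libraries (log2 fold change 0.50, limma adjusted p = 0.0137). Myo5b, the motor that works with it, had 65.8 to 83.1 and 101 to 147 TPM (log2 fold change 0.62, limma adjusted p = 0.00392). The libraries of the genotypes did not overlap for either gene. Rab25, the epithelial relative of Rab11a, had a log2 fold change of -0.25 (limma adjusted p = 0.138; 0.0218 without RhoB-/- replicate 3) and Rab3b, a GTPase that binds Pigr and passed the filter only through the RhoB-/- libraries, one of 0.50 (limma adjusted p = 0.129).

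Receptors and transcription factors known to act on Pigr were often higher in RhoB-/- libraries. Of the 20 regulators, all tested, 10 were called higher, where 7.73% of all tested genes were, and 0 lower (13 higher and 0 lower at an unadjusted limma p below 0.05), with a median log2 fold change of 0.43 beside -0.13 for all tested genes. For 8 of them every RhoB-/- library lay above every WT library, as for 5.97% of all tested genes. Nr1h4, the bile acid receptor, had 55.1 to 77.7 TPM in WT and 111 to 163 TPM in RhoB-/- libraries (limma adjusted p = 0.000483). Tlr4, a receptor for bacterial lipopolysaccharide, and Tlr3, a receptor for double-stranded RNA, had log2 fold changes of 0.99 and 0.74 (limma adjusted p = 0.00223 and 0.00328). The most abundant regulator was Ifngr1, a chain of the interferon gamma receptor, with a log2 fold change of 0.48 (limma adjusted p = 0.0403). Irf1, named after its values were seen, had one of 0.66 (limma adjusted p = 0.0221). Usf1 and Usf2, which bind E-boxes and were looked up for the window above, had log2 fold changes of 0.31 and -0.02 (limma adjusted p = 0.162 and 0.915). Without the library labelled RhoB-/- replicate 5, 8 regulators were called, and Ifngr1 (limma adjusted p = 0.0924) and Irf1 (limma adjusted p = 0.0546) were not. Single libraries decided these calls more widely: Ifngr1 was also not called without WT replicate 1, 2 or 4 or RhoB-/- replicate 1 or 4 (limma adjusted p up to 0.1003), nor Irf1 without WT replicate 2 or 4 or RhoB-/- replicate 1 (up to 0.0616).

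Igha (ENSMUSG00000095079) was higher in RhoB-/- libraries at a level far under that of Pigr. Its TPM was 0.71, 1.70, 2.53, 3.83 and 2.35 in WT replicates 1 to 5 and 8.73, 3.72, 6.29, 5.49 and 6.41 in RhoB-/- replicates 1 to 5. Only RhoB-/- replicate 2 fell within the WT range, just below WT replicate 4. The mean was 2.22 ± 1.15 TPM in WT and 6.13 ± 1.81 TPM in RhoB-/- (SD, n = 5), a ratio of 2.76. Igha rose with a log2 fold change of 1.19 (95% interval 0.61 to 1.76, limma adjusted p = 0.00947), and of 1.16 without the library labelled RhoB-/- replicate 5 (limma adjusted p = 0.0252). In bulk RNA, more cells that make a transcript and more of it per cell cannot be told apart.

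Ighm (ENSMUSG00000076617) varied more among RhoB-/- libraries than between the means. Its TPM was 1.19, 0.49, 0.54, 0.98 and 0.99 in WT replicates 1 to 5 and 0.94, 0.87, 2.75, 2.98 and 9.31 in RhoB-/- replicates 1 to 5. RhoB-/- replicates 1 and 2 lay within the WT range, and replicates 3, 4 and 5 above it. The log2 fold change was 0.96 (95% interval 0.09 to 1.83, limma adjusted p = 0.103), and 0.58 without the library labelled RhoB-/- replicate 5 (limma adjusted p = 0.176). Igha (113254830 to 113260236) and Ighm (113418558 to 113422730) lie 158 kb apart on chromosome 12, both read from its minus strand. Rhob lies on the same chromosome, 105 Mb from Igha.

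The other heavy constant genes were near 0 in WT. Of the 8 genes of the list 2 were tested, the members Igha and Ighm described above. Of these 1 was called higher and 0 lower (2 higher and 0 lower at an unadjusted limma p below 0.05). Of the 6 under the filter 2 had an exact permutation p below 0.05, Ighd and Ighg2b, named after their values were seen. Ighg2b, an IgG constant region, was listed at 0 in 4 WT libraries and at 0.07 TPM in WT replicate 3, against 2.15, 0, 0.85, 0.69 and 2.96 TPM in RhoB-/- replicates 1 to 5 (exact permutation p = 0.0476). Ighd, the IgD constant region, was listed at 0 in 4 WT libraries and at 0.04 TPM in WT replicate 4, against 0, 0.14, 0.93, 0.63 and 2.57 TPM (exact permutation p = 0.0476; 0.0873 without any single WT library). RhoB-/- replicates 1 and 5 thus had the most Ighg2b, but replicate 1 had no Ighd. The summed TPM of the 4 IgG genes was at most 0.13 in WT, and 2.63, 0, 2.45, 1.78 and 3.95 in RhoB-/- replicates 1 to 5.

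Igha was above Ighm in 8 of 10 libraries. Its share of the heavy constant TPM was 37.4%, 77.6%, 80.6%, 76.1% and 69.3% in WT replicates 1 to 5 and 71.0%, 78.6%, 50.2%, 50.5% and 28.8% in RhoB-/- replicates 1 to 5. The mean share was 68.2% ± 17.7 in WT and 55.8% ± 19.6 in RhoB-/- (SD, n = 5; exact permutation p = 0.349, and 0.349 after adjustment over 4 such tests). WT replicate 1 and RhoB-/- replicate 5 were the libraries where Ighm led, with 62.6% and 41.9% of the heavy constant TPM. IgG genes held 21.4%, 19.6%, 16.4% and 17.8% in RhoB-/- replicates 1, 3, 4 and 5, and at most 2.58% in WT.

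**Figure D2:**
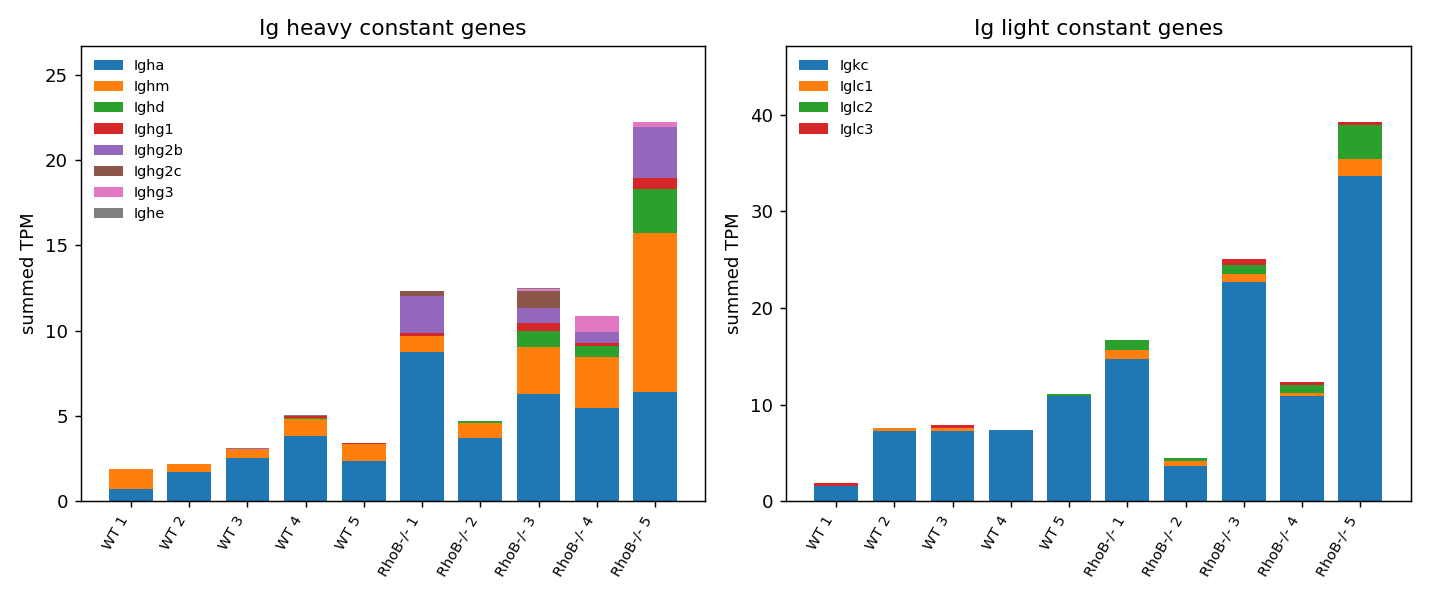
Summed TPM of the heavy (left) and light (right) constant genes in each library, stacked by gene. The heavy sum runs from 1.90 to 5.03 in WT and from 4.73 to 22.2 in RhoB-/- libraries; Igkc makes up most of each light bar, and Ighm is the largest part of the heavy bar in WT replicate 1 and RhoB-/- replicate 5.

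Igkc (ENSMUSG00000076609), a single exon on the plus strand of chromosome 6 from 70726435 to 70726966, was the most abundant antibody gene. Its TPM was 1.54, 7.27, 7.29, 7.36 and 10.9 in WT replicates 1 to 5 and 14.7, 3.63, 22.7, 10.9 and 33.7 in RhoB-/- replicates 1 to 5. The groups overlapped: RhoB-/- replicate 2 lay below 4 WT libraries, and RhoB-/- replicate 4 was level with WT replicate 5. The mean was 6.87 ± 3.37 TPM in WT and 17.1 ± 11.5 TPM in RhoB-/- (SD, n = 5). The log2 fold change of 1.07 (95% interval -0.05 to 2.20) was not called (limma adjusted p = 0.155). It was 0.77 without the library labelled RhoB-/- replicate 5 (limma adjusted p = 0.315), and 1.49 and called without RhoB-/- replicate 2 (limma adjusted p = 0.0369).

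The lambda constant genes were lower than Igkc in each library. Of the 5 light constant genes 1 was tested and limma called 0 in either direction, also at an unadjusted p below 0.05; of the 4 under the filter 2 had an exact permutation p below 0.05. Iglc2, named after its values were seen, was listed at 0 in 4 WT libraries and at 0.16 TPM in WT replicate 5, against 1.03, 0.30, 0.95, 0.86 and 3.54 TPM in RhoB-/- replicates 1 to 5, with no overlap (exact permutation p = 0.00794). Iglc1, also named after its values were seen, had an exact permutation p of 0.0159, and Iglc4, named for the same reason, was listed at 0 in every library. The kappa share of the light constant TPM was 94.0% ± 6.68 in WT and 86.9% ± 3.45 in RhoB-/- (SD, n = 5; exact permutation p = 0.0714, and 0.0952 after adjustment over 4 tests). Without WT replicate 1, the WT library with the least Igkc, the difference was -9.86 percentage points and passed (adjusted exact p = 0.0317).

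More variable segments were listed above 0 in RhoB-/- libraries. Of 185 Ighv segments, the WT libraries listed 2, 1, 4, 2 and 5 above 0 and the RhoB-/- libraries 26, 8, 18, 17 and 30. Of 160 Igkv segments, the WT libraries listed 5, 3, 8, 6 and 7 and the RhoB-/- libraries 26, 10, 26, 14 and 30. The groups did not overlap in either family. The summed Ighv TPM was 0.69, 0.47, 2.01, 0.70 and 2.54 in WT and 31.6, 6.53, 20.6, 18.7 and 37.2 in RhoB-/- replicates 1 to 5. Summed Igkv TPM was 2.53 to 4.55 in WT and 7.98 to 39.2 in RhoB-/- libraries. RhoB-/- replicate 2 was the lowest and replicate 5 the highest of their group in both families.

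The effective number of segments, the inverse Simpson index of their TPM, cannot exceed the number listed above 0. For Ighv it was 1.95, 1, 3.86, 1.92 and 3.67 in WT and 16.1, 6.06, 12.4, 9.99 and 18.9 in RhoB-/- replicates 1 to 5 (exact permutation p = 0.00794, the smallest possible, and 0.0317 after adjustment over 4 tests). For Igkv the mean was 5.26 ± 1.90 in WT and 14.4 ± 5.86 in RhoB-/- (SD, n = 5; exact permutation p = 0.0159, adjusted 0.0317). The groups did not overlap for Ighv, and for Igkv RhoB-/- replicate 2 (6.92) lay under WT replicate 3 (7.30). Libraries with more segments also had a higher summed level, and how far the level sets the number was not tested. Without the library labelled RhoB-/- replicate 5 the differences were 8.65 for Ighv and 6.96 for Igkv (adjusted exact p = 0.0317 for both), beside 10.2 and 9.10 with it.

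**Figure D3:**
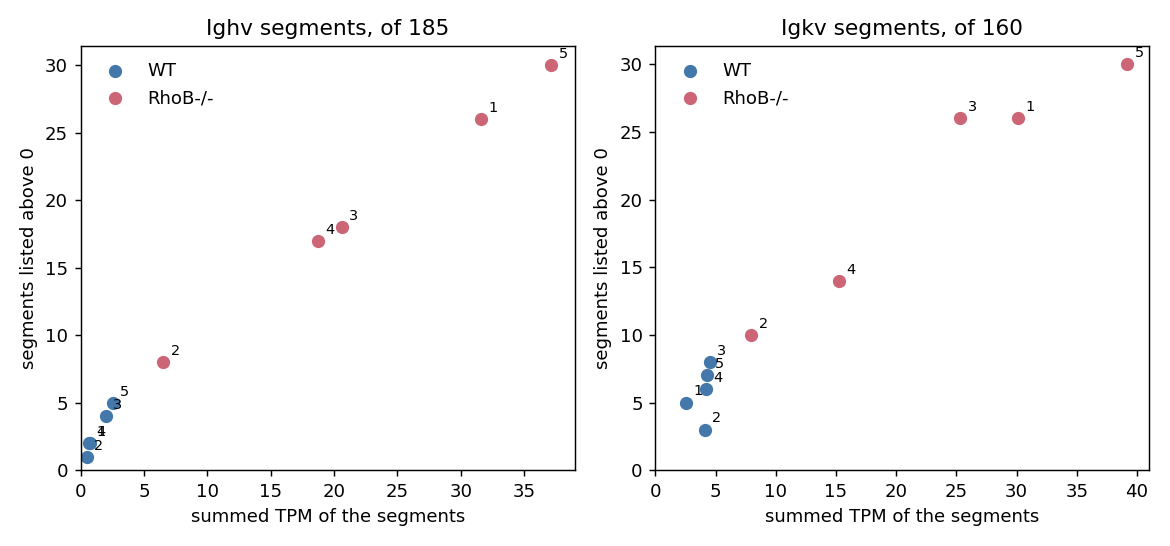
Number of Ighv (left) and Igkv (right) segments listed above 0 against their summed TPM, a point per library with its replicate number. The WT libraries lie at 1 to 5 Ighv and 3 to 8 Igkv segments, and the RhoB-/- libraries at 8 to 30 and 10 to 30.

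Few segments were above 0 in every RhoB-/- library. Of the Ighv segments 56 were above 0 in some RhoB-/- library and 11 in some WT library, 9 of them in both. In all 5 RhoB-/- libraries 2 Ighv segments were above 0. For Igkv the numbers were 53, 20, 17 and 1. Of the segments above 0 in some library, 28 of Ighv and 20 of Igkv were so in 1 library alone. The most abundant Ighv segment, Ighv8-8, was listed at 0 in the 5 WT libraries and at 3.89, 1.38, 0.99, 1.66 and 0.62 TPM in RhoB-/- replicates 1 to 5. Ighv1-34 and Ighv1-19 followed it, each above 0 in WT replicate 3 alone among WT libraries. No Ighv or Igkv segment was the most abundant of its family in more than 2 libraries: Igkv1-117 was the top Igkv segment of RhoB-/- replicates 1 and 4 with 5.16 and 2 TPM, Igkv6-23 had 4.10 TPM in RhoB-/- replicate 3, and Igkv4-59 was above 0 in 4 libraries of each group. Among the lambda segments Iglv1 had 0, 0.45, 1.69, 0 and 0.82 TPM in WT and 5.24, 0.37, 3.92, 1.30 and 4.43 TPM in RhoB-/- replicates 1 to 5, while Iglv3 and Iglv2 had mean TPM of 0.133 and 0.052. Near-identical segments can share reads, so single segments are uncertain.

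Jchain (ENSMUSG00000067149; chromosome 5, bases 88519809 to 88527891, minus strand) was the member whose groups did not overlap. Its TPM was 0.15, 0.10, 0.50, 0.19 and 0.63 in WT replicates 1 to 5 and 2.11, 0.75, 1.58, 0.92 and 1.85 in RhoB-/- replicates 1 to 5. Every RhoB-/- library lay above every WT library, RhoB-/- replicate 2 by the least. The mean was 0.314 ± 0.236 TPM in WT and 1.44 ± 0.588 TPM in RhoB-/- (SD, n = 5), and the log2 fold change was 0.88 (exact permutation p = 0.00794). It was 0.81 without the library labelled RhoB-/- replicate 5 (exact permutation p = 0.00794). Jchain was called in the limma fit of all genes above 0 in some library (adjusted p = 0.0238). Its promoter window, chr5:88527848-88528147 on the minus strand, and that of Cd79a, chr7:24897247-24897546 on the plus strand, are shown because both genes were higher in RhoB-/- libraries; neither held any of the 4 motifs.
Jchain: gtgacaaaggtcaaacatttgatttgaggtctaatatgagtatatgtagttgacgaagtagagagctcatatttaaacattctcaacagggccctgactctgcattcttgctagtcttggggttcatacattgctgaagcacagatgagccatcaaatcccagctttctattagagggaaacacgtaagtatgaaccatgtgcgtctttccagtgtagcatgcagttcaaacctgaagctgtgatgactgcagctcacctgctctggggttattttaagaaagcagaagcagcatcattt
Cd79a: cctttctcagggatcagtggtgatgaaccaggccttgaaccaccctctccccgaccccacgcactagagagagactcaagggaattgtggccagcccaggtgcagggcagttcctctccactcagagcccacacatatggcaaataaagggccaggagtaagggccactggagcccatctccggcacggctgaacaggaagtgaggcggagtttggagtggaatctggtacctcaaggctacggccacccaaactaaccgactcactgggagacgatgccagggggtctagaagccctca

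Cd79a (ENSMUSG00000003379), on the plus strand of chromosome 7 from 24897381 to 24902197, marks B cells of most stages. It was listed at 0 in WT replicates 1 to 4 and at 0.12 TPM in WT replicate 5, against 0.52, 0.09, 1.96, 0.59 and 6.09 TPM in RhoB-/- replicates 1 to 5. RhoB-/- replicate 5 had the most and RhoB-/- replicate 2 fell below WT replicate 5. The log2 fold change was 1.13 (exact permutation p = 0.0159), and 0.71 without the library labelled RhoB-/- replicate 5 (exact permutation p = 0.0159). With all genes above 0 in some library in the limma fit, the adjusted p was 0.153.

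The B cell markers, a list that includes Cd79a, were low and followed the same libraries. Of 20 markers 3 were tested and 2 called higher, Ly6d and Spib, where 7.73% of all tested genes were, with a median log2 fold change of 0.79. Of 17 under the filter 6 had an exact permutation p below 0.05, all higher, where 3.59% of all genes under the filter were. The summed TPM of the list was 4.84, 2.84, 2.74, 2.45 and 4.06 in WT replicates 1 to 5 and 10.1, 4.19, 17.1, 11.1 and 38.0 in RhoB-/- replicates 1 to 5. RhoB-/- replicate 5 was the highest of its group for 18 of the 20 markers, and RhoB-/- replicate 2 the lowest or tied for 15. Ly6d, which passed the filter only through the RhoB-/- libraries (mean TPM 0.282 in WT and 2.81 in RhoB-/-), had a log2 fold change of 1.41 (limma adjusted p = 0.0150), Spib, the most abundant, 0.79 (limma adjusted p = 0.0447) and Cd37 0.51 (limma adjusted p = 0.0991). Without the library labelled RhoB-/- replicate 5 Ly6d was called (limma adjusted p = 0.0371) and Spib was not (limma adjusted p = 0.106). Spib was also not called without WT replicate 2, 3, 4 or 5 or RhoB-/- replicate 3 or 4 (limma adjusted p up to 0.108), and Cd37 was called without RhoB-/- replicate 2 (limma adjusted p = 0.0414). Cd22 and Pax5, named after their values were seen, did not exceed 0.03 TPM in any WT library. In RhoB-/- replicates 1 to 5 Cd22 had 0.02, 0, 1.52, 0.75 and 3.44 TPM (exact permutation p = 0.143; 0.0317 without RhoB-/- replicate 2 and 0.0476 without RhoB-/- replicate 1).

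**Figure D4:**
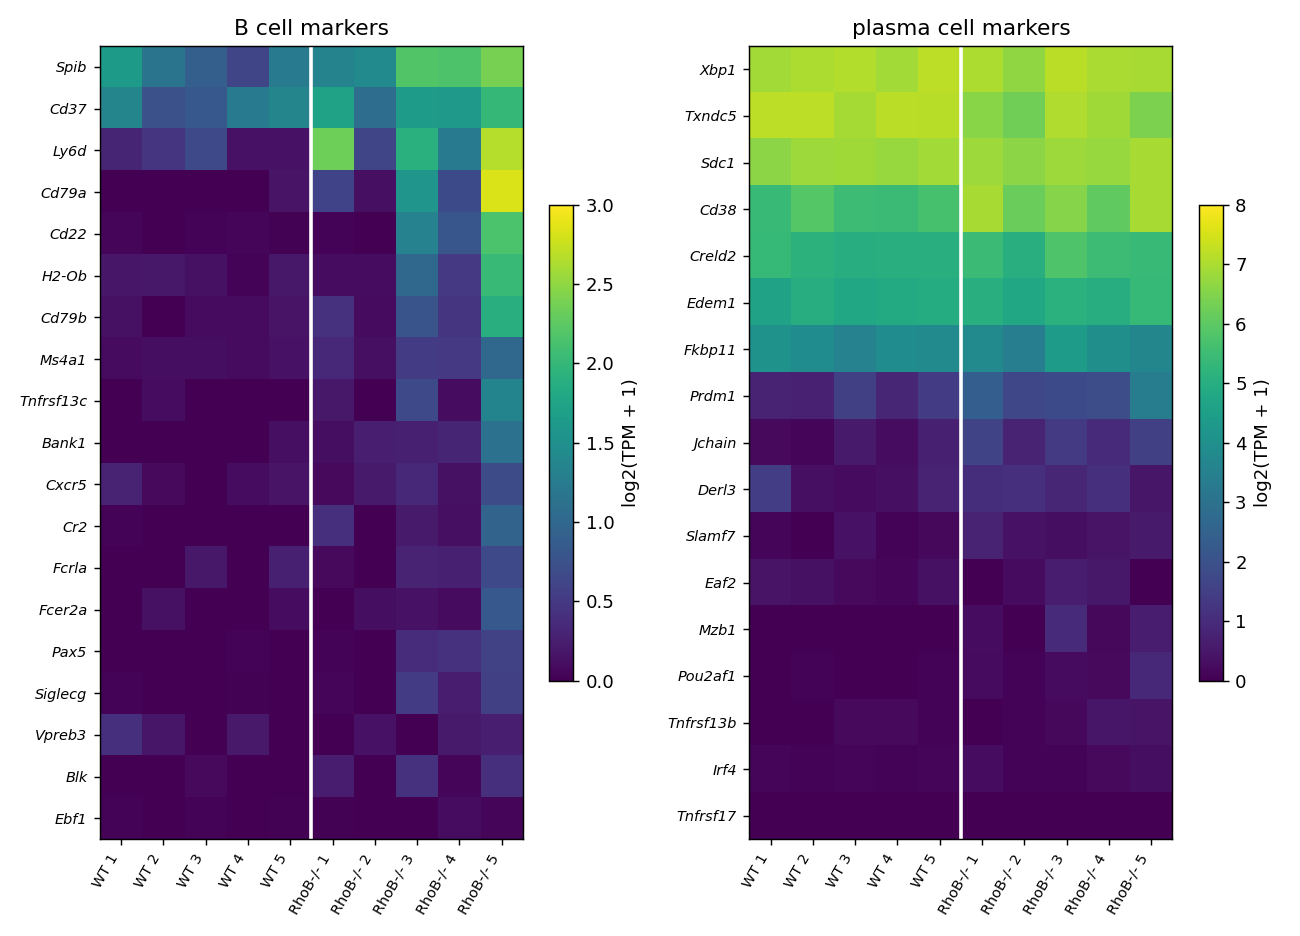
Level of B cell markers (left, 1 of the list not drawn) and of plasma cell markers (right) in each library as log2(TPM + 1), genes ordered by mean TPM, with a colour scale for each panel. Most B cell markers are highest in RhoB-/- replicate 5, and Spib and Cd37 are the brightest in WT; the upper 7 plasma cell markers are bright in all 10 libraries.

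Mzb1 (ENSMUSG00000024353) lies on the minus strand of chromosome 18. It was listed at 0 in the 5 WT libraries and at 0.19, 0, 0.95, 0.13 and 0.53 TPM in RhoB-/- replicates 1 to 5. It was above 0 in 4 of 5 RhoB-/- libraries, and RhoB-/- replicate 2 was again without signal. The exact permutation p was 0.0476, the difference of mean log2(TPM + 1) was 0.40, and no fold is given against a group listed at 0. The difference was 0.35 without the library labelled RhoB-/- replicate 5 (exact permutation p = 0.0476), and the exact p was 0.0873 without any single WT library.

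Plasma cell markers split by level. Of 17 markers 8 were tested, 2 were called higher and 1 lower, with a median log2 fold change of 0.12. Over all tested genes 7.73% were called higher and 13.5% lower. Of 9 under the filter 4 had an exact permutation p below 0.05, all higher, where 3.59% of all genes under the filter were. The members Jchain and Mzb1, described above, are on this list and among those 4. The summed TPM was 482 to 533 in WT and 416 to 596 in RhoB-/- libraries. It came mostly from 7 genes with a mean of at least 10 TPM that the epithelial preparation holds in both genotypes, led by Xbp1, the secretory cell transcription factor (log2 fold change -0.04, limma adjusted p = 0.798). Cd38, an ectoenzyme, and Prdm1, the factor that drives B cells to plasma cells, were called higher, with log2 fold changes of 0.95 and 1.19 (limma adjusted p = 0.00534 and 0.0201). Prdm1 had 0.66 to 1.85 TPM in WT and 4.24, 2.29, 2.49, 2.74 and 9.52 TPM in RhoB-/- replicates 1 to 5, with no overlap, and was not called without WT replicate 2 (limma adjusted p = 0.0510). Txndc5, a disulphide isomerase, fell by 0.50 on the log2 scale (limma adjusted p = 0.0325), a call lost without the library labelled RhoB-/- replicate 5 (limma adjusted p = 0.0770), without WT replicate 1, 2, 4 or 5, and without RhoB-/- replicate 1 or 2. The call of Txndc5 was also lost on recentring (log2 fold change -0.37, limma adjusted p = 0.104), with no filter (0.0649) and with a replicate block (0.0715). Creld2 had a log2 fold change of 0.33 (limma adjusted p = 0.0991) and was called without RhoB-/- replicate 2 (limma adjusted p = 0.0263). Tnfrsf17, the plasma cell receptor BCMA, named after its values were seen, was listed at 0 in every library.

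The chaperones that fold secreted glycoproteins, which plasma cells and goblet cells both use, were not called. Limma called 0 of 14 in either direction, also 0 at an unadjusted p below 0.05, with a median log2 fold change of 0.04. Hspa5, the most abundant, had 419 to 505 TPM in WT and 320.2 to 534 TPM in RhoB-/- libraries (log2 fold change 0.01, limma adjusted p = 0.968). Calr, Manf, Sec61b and Pdia4 had log2 fold changes of 0.22, 0.22, 0.12 and -0.14 (limma adjusted p = 0.234, 0.378, 0.586 and 0.486), and Manf was called without RhoB-/- replicate 2 (limma adjusted p = 0.0456).

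Among signals that draw B cells to the gut and turn them to IgA, Tnfsf13b, the survival factor BAFF, stood out. It had 1.77, 1.80, 1.98, 1.74 and 2.07 TPM in WT replicates 1 to 5 and 6.00, 3.29, 6.09, 5.71 and 6.39 TPM in RhoB-/- replicates 1 to 5. The groups did not overlap (log2 fold change 1.15, limma adjusted p = 0.000478; 1.10 and 0.00193 without the library labelled RhoB-/- replicate 5). Itgb7, a chain of the gut homing integrin that T cells carry too, was the other called gene (log2 fold change 1.06, limma adjusted p = 0.00982), and it passed the filter only through the RhoB-/- libraries (mean TPM 0.830 in WT and 2.99 in RhoB-/-). They were 2 of 13 tested of the 33 genes listed, 0 were called lower (2 at an unadjusted limma p below 0.05, Map3k14 and Tgfb1, with log2 fold changes of -0.52 and -0.37; Map3k14 was called without WT replicate 1, adjusted p = 0.0293, and Tgfb1 without RhoB-/- replicate 3, adjusted p = 0.0455), and the median was -0.04; of 20 under the filter 1 had an exact permutation p below 0.05, higher. Aldh1a1, which makes retinoic acid, was the most abundant with a log2 fold change of 0.41 (limma adjusted p = 0.148). Ccl28, the epithelial chemokine for IgA plasma cells, named after its values were seen, had 24.8 to 44.1 TPM in WT and 26.03 to 36.2 TPM in RhoB-/- libraries (log2 fold change -0.15, limma adjusted p = 0.534). Madcam1, also named after its values were seen, was listed at 0 in every library.

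Of 9 genes of the germinal centre and of class switching 4 were tested, 2 were called higher and 1 lower, with a median of 0.54. Over all tested genes 7.73% were called higher and 13.5% lower. Of 5 under the filter 1 was higher and 1 lower at an exact permutation p below 0.05 (Il21r, p = 0.0238, and Mybl1, p = 0.0397, named after their values were seen). Fas, a death receptor, rose by 0.74 (limma adjusted p = 0.00736), and Rgs13, a regulator of G protein signalling, by 0.86 (limma adjusted p = 0.0218), both on the log2 scale. Ung, the uracil glycosylase that acts in class switching and in DNA repair of all cells, fell by 0.67 (limma adjusted p = 0.0249), and Bcl6 had a log2 fold change of 0.35 (limma adjusted p = 0.112). Without the library labelled RhoB-/- replicate 5 the calls of Rgs13 (limma adjusted p = 0.0528) and Ung (limma adjusted p = 0.0595) were lost. So they were without WT replicate 4 (limma adjusted p = 0.0574 and 0.0654), and that of Rgs13 without RhoB-/- replicate 4 (limma adjusted p = 0.0514). With no filter neither was called (limma adjusted p = 0.0618 for Rgs13 and 0.0657 for Ung), and with fold changes recentred on the median of all genes Ung was not (log2 fold change -0.54, limma adjusted p = 0.0637).

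Some markers of other cells were also higher in RhoB-/- libraries, and their part in these results was not tested. Nor was that of the mitochondrial share of TPM, which was 26.5%, 17.5%, 17.99%, 18.2% and 20.3% in WT replicates 1 to 5 and 19.4%, 22.4%, 10.3%, 17.1% and 12.1% in RhoB-/- replicates 1 to 5, highest in each group in the library with the lowest antibody total. T cell and intraepithelial lymphocyte markers were called higher for 7 of 8 tested of 13 listed (Cd8a and Itgae, named after their values were seen, passed the filter only through the RhoB-/- libraries), and pan-leukocyte markers for 4 of 4 tested of 5. Under the filter 2 of 5 and 1 of 1 were higher at an exact permutation p below 0.05. Over all genes the shares were 7.73% of those tested and 3.59% of those under the filter. The summed T cell level was 23.4, 13.0, 13.5, 11.5 and 24.3 TPM in WT replicates 1 to 5 and 65.1, 66.1, 67.0, 59.95 and 58.2 TPM in RhoB-/- replicates 1 to 5, led by Gzma, a granule protease with a mean of 14.1 TPM. The T cell sums of the RhoB-/- libraries thus lay close together, while their B cell sums ranged from 4.19 to 38.0 TPM. RhoB-/- replicate 2, lowest for most B cell markers, had a T cell sum as high as the others. That library was also lowest or tied in its group for 13 of 14 chaperones, 10 of 12 epithelial markers and 15 of 20 regulators of Pigr. It was so for 5 of 13 T cell markers and 1 of 9 stromal and endothelial markers. Its low place was thus not particular to B cell markers. Pan-leukocyte markers summed to 6.51 to 13.7 TPM in WT and 18.8 to 38.1 TPM in RhoB-/- libraries, led by Cd52. No gene on the lists of epithelial, T cell, pan-leukocyte, macrophage, M cell, stromal, smooth muscle and blood markers was listed at 0 in every library.

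Macrophage and dendritic cell markers summed to 17.9 to 31.0 TPM in WT and 23.1 to 47.9 TPM in RhoB-/- libraries, led by Cd14, and 1 of 4 tested of 11 was called higher (Cd68, named after its values were seen, which passed the filter only through the RhoB-/- libraries); of 7 under the filter 1 was higher at an exact permutation p below 0.05. Stromal and endothelial markers summed to 4 to 5.23 TPM in WT and to 6.46, 7.67, 7.14, 16.2 and 36.4 TPM in RhoB-/- replicates 1 to 5. They were led by Dcn, a matrix proteoglycan, and were highest in the library that was also highest for B cell markers; 1 of 2 tested of 9 was called higher, and 2 of 7 under the filter were higher at an exact permutation p below 0.05. Markers of M cells and follicle epithelium summed to 66.2 to 88.9 and 54.4 to 86.6 TPM, led by Tnfrsf11a, with 0 of 4 tested of 7 called by limma (0 higher and 1 lower at an unadjusted p below 0.05). Of the 3 under the filter 1 had an exact permutation p below 0.05, Gp2, named after its values were seen, with 0.04 TPM in WT replicate 1 and 0 in the other WT libraries, against 0.24, 0, 0.42, 0.56 and 0.16 TPM in RhoB-/- replicates 1 to 5 (exact permutation p = 0.0476). Smooth muscle markers, led by Actg2, summed to 1.41 to 6.46 and 1.66 to 3.68 TPM, and blood markers, led by Hba-a2, to 225 to 903 and 55.9 to 942 TPM; limma called 0 of the 2 and 0 of the 5 tested, and 0 at an unadjusted p below 0.05. Of the 12 epithelial markers 3 were called higher (Krt20, Vil1 and Cdx2, named after their values were seen), where 7.73% of all tested genes were, and 0 lower. Their median log2 fold change was 0.29. Cdx2 lost its call without the library labelled RhoB-/- replicate 5 (limma adjusted p = 0.0987) and without any of 7 others.

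**Figure D5:**
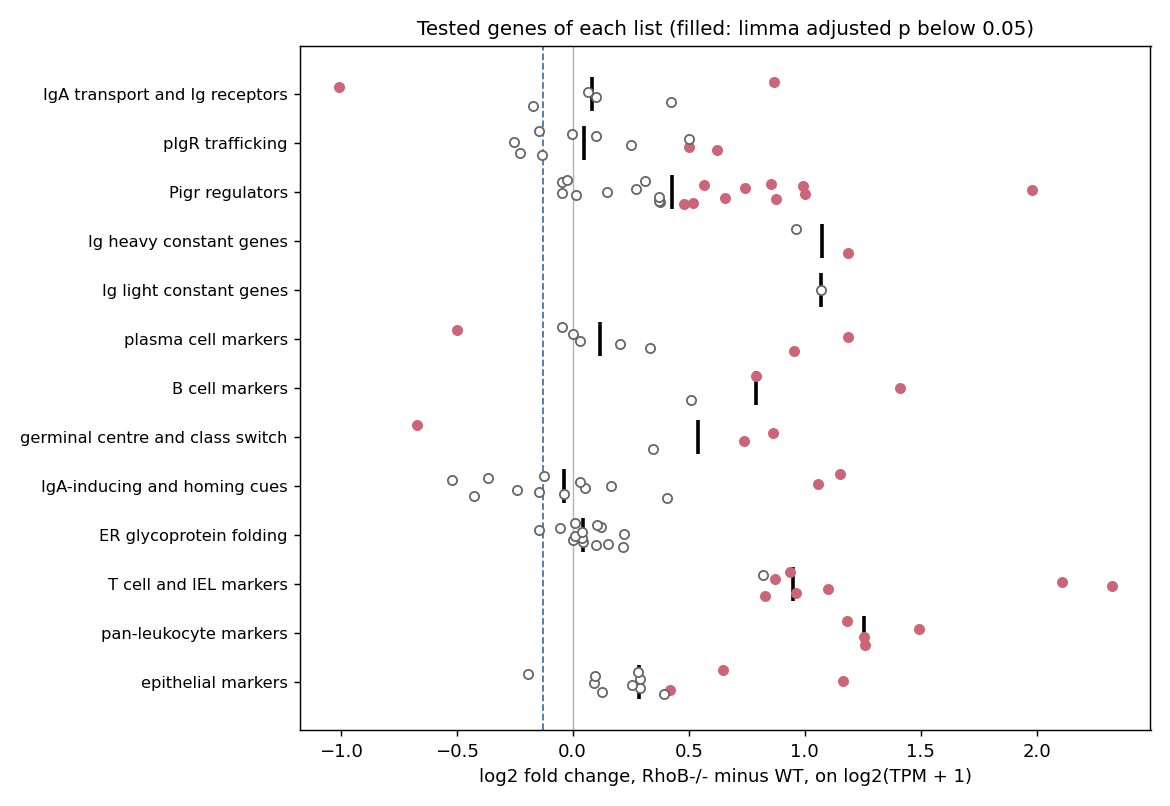
Log2 fold change (RhoB-/- minus WT, on log2(TPM + 1)) of the tested genes of 13 lists, a point per gene, filled where called; black bars are list medians and the dashed line is the median of all tested genes, -0.13. T cell and pan-leukocyte markers lie to the right, the chaperones around 0, and the regulators of Pigr around 0 and to its right.

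The genes outside the antibody loci whose levels followed each tested member most closely within genotypes were named by Pearson's r of log2(TPM + 1) over the 10 libraries after the genotype means were subtracted. They are the highest among all tested genes and describe these libraries alone. For Pigr they were Srd5a2 (r = 0.96, Spearman's coefficient 0.90), Sgsm2 (r = 0.95, Spearman 0.95) and Wdr13 (r = 0.95, Spearman 0.85). For Igkc they were Anxa7 (r = 0.98, Spearman 0.90), Sdc1 (r = 0.98, Spearman 0.90) and Rac1 (r = 0.97, Spearman 0.94). Igha was followed by Dipk1a (r = 0.94, Spearman 0.95), Pik3ip1 (r = 0.93, Spearman 0.72) and Gm37145 (r = 0.92, Spearman 0.79), and Ighm by Slc25a53 (r = 0.93, Spearman 0.87), Arhgap29 (r = 0.93, Spearman 0.76) and Hamp (r = 0.92, Spearman 0.82). Among antibody genes Igkc followed Iglv1 (r = 0.76), Igha (r = 0.71) and Ighm (r = 0.52), whereas Pigr had r = 0.30 with Igha and 0.19 with Igkc.

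Set side by side, the antibody genes as a whole took 6.97, 14.8, 19.3, 17.3 and 22.6 TPM in WT replicates 1 to 5 and 96.0, 24.1, 87.9, 59.5 and 142 TPM in RhoB-/- replicates 1 to 5. RhoB-/- replicate 2 exceeded the highest WT library by little. In each library this total stayed below the level of Pigr alone.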

How the data were processed

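RNA-seq of colonic IECs from 5 WT and 5 RhoB-/- libraries was used, grouped by the sample labels. The authors deposited TPM values; per the submitters' processing notes and the study's methods, reads were aligned with HISAT2 to GRCm38.p6, assembled with StringTie and quantified with RSEM, and the notes also name edgeR. Tool versions and the annotation release are not given in the sources used here; the WT mice were bought as males, and the sex of the RhoB-/- mice used for RNA-seq is not given. TPM keeps no depth, and a gene that takes much of a library lowers the others in it.

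Values were used as deposited, as log2(TPM + 1). Genes whose TPM averaged 1 or more were fitted with limma 3.58.1 in R 4.3.3 (lmFit, eBayes with an intensity trend), and p-values were adjusted by Benjamini-Hochberg over all genes fitted. For members under the filter a two-sided exact permutation test was run over all labelings of 5 of the 10 libraries, as were 4 derived values (the Igha share of heavy constant TPM, the kappa share of light constant TPM and the effective numbers of Ighv and Igkv segments), adjusted over these 4. The fit was tested on simulated data. Figures were drawn with matplotlib 3.10.9.

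The members and the 18 gene lists were chosen with earlier results of these data known. By rule, the text names all members, the most abundant gene of each list, from lists on antibodies, B cells and IgA transport up to 4 tested genes with the smallest adjusted p, genes of other cell types at 0 throughout, the 3 most abundant segments of each variable family, and the 3 genes most like each tested member. Usf1, Usf2 and any gene said to be named after its values were seen stand outside it. Positions are from GENCODE M21 on GRCm38 and promoter windows from RefSeq. Alternatives were a pseudocount of 0.1, other filters and scalings, recentring, limma without trend, the study's thresholds, a replicate block and each library left out in turn. Counts of list genes without RhoB-/- replicate 5 or without a filter were added after seeing the data.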

Additional observations from a re-analysis of the deposited data

Results flagged for a closer look

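In 4 of 23 groups of 5 libraries a value stood far from the other 4 of its group; chance alone would give such a gap in about 5% of groups. Rhob had 110.9 TPM in the library labelled RhoB-/- replicate 5, where the other 4 were at most 0.57 TPM. Ighm had 9.31 TPM in that library, where the next highest RhoB-/- library had 2.98 TPM. Cd79a had 0.12 TPM in WT replicate 5 and was listed at 0 in the other WT libraries; with 4 values at 0 any other value stands apart, so the 5% does not hold for this group. The Igha share of heavy constant TPM was 37.4% in WT replicate 1, where the other WT libraries had 69.3% to 80.6%.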

How the results depend on the processing

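Igha was higher and past the threshold of the test used under each alternative, from 1.18 to 1.55 (log2), and from 0.98 to 1.35 with single libraries left out; the p was unadjusted at the study's thresholds and with a filter of mean TPM of at least 5 (exact permutation p = 0.0159). Pigr was never called, from 0.01 to 0.17 with single libraries left out, and its sign turned to -0.00816 after rescaling without mitochondrial genes (limma adjusted p = 0.965). Igkc ranged from 0.70 to 1.49 with single libraries left out and was called only without RhoB-/- replicate 2. Ighm, 0.96 at the study's thresholds, passed there alone (limma unadjusted p = 0.0326). Mzb1 (0.40) and Cd79a (1.13), past 0.05 only in unadjusted exact tests, were not called by limma with no filter (adjusted p = 0.158 and 0.153), and Mzb1 did not pass at the study's thresholds, where its 0.40 misses the fold. With single libraries left out Mzb1 ranged from 0.26 to 0.50 and was past the threshold in 5 of 10. The kappa share ranged from -9.86 to -5.67 points and passed only without WT replicate 1. The Igha share never passed, from -20.1 to -5.63 points with single libraries left out and -0.18 points (adjusted exact p = 0.984) over the constant genes that average 1 TPM or more. With single libraries left out the effective numbers of Ighv (8.65 to 11.9) and Igkv segments (6.96 to 10.95), Jchain (0.78 to 0.99) and Cd79a (0.71 to 1.38) stayed past the threshold. The differences of Jchain, Mzb1 and Cd79a depend on the pseudocount: with 0.1 they were 1.99, 1.76 and 3.10.

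Genes called higher numbered 1585 after quantile normalization. Genes called lower numbered 1104 with a filter of mean TPM of at least 5, 3730 after rescaling without mitochondrial genes, 771 after recentring, 1072 at the study's thresholds, and 853 to 2868 with single libraries left out (950 and 853 without WT replicates 2 and 4, and 985, 2868 and 1116 without RhoB-/- replicates 1, 3 and 5). The cause was not tested.

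The replicate numbers 1 to 5 occur in both genotypes, but same-numbered libraries did not deviate together (correlations of 0.02, 0.02, 0.07, -0.09 and -0.00), so they share only a number. With a replicate block 836 genes were called higher and 1059 lower; in exact tests within pairs, whose smallest p is 0.0625, Jchain (0.88) and Cd79a (1.13) had p = 0.0625 and Mzb1 (0.40) had p = 0.125, which that design cannot take below the threshold.

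Signs of genes that were never called turned for Hspa5 (-0.11 after quantile normalization, -0.0667 without mitochondrial genes, -0.000377 without immunoglobulin genes, -0.0516 to 0.13 with single libraries left out), Xbp1 (0.0817 recentred, -0.0944 to 0.0271), Tnfrsf11a (0.0166 recentred, -0.18 to 0.0240), Hba-a2 (-0.86 to 0.12) and Sec61b (-0.0146 to 0.22). With no filter limma also did not call Ifngr1 (adjusted p = 0.0782), Irf1 (0.0532), Prdm1 (0.0599), Spib (0.103), Dcn (0.0634) and Cdx2 (0.0777). Genes newly past the threshold included Creld2 (0.46) and Bcl6 (0.47) on recentring, Rab25 (-0.33), Map3k14 (-0.60) and Tgfb1 (-0.45) after rescaling without mitochondrial genes, and Rab25 (-0.33), Cd37 (0.62) and Bcl6 (0.51) after quantile normalization. Over the other named genes 1353 of 1488 values kept direction and side of the threshold, 89 were no longer past it and 30 newly past it. Of 720 counts of list genes 33 lay more than 1.5 times above or below the reported count. No light constant gene beside Igkc had a mean TPM of at least 1, and too few segments did, so the kappa share and the effective numbers have no value under that filter; recentring and the trend do not apply to members under the filter.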
